A study of Mus musculus with 4 samples.

Results

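The genes described here encode subunits of respiratory complexes I, II and III, cytochrome c and the mitochondrial ATP synthase. They were chosen by symbol alone: every gene whose single symbol in the array annotation begins with Nduf, Uqcr or Atp5, with Sdha, Sdhb, Sdhc, Sdhd, Cyc1 and Cycs added and cytochrome oxidase genes left out. Of the 8251 genes with their own symbol on the array, 58 met this rule and are called the members: 29 complex I subunits, 2 complex I assembly factors, 4 complex II subunits, 8 complex III subunits, cytochrome c and 14 ATP synthase genes. Where several probe sets measured a gene, the brightest on average stands for it. Uqcrfs1, Atp5b and Atp5g3, which encode further subunits, were not analysed here.

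RNA of epididymal white fat from male C57BL/6 mice aged 3 to 4 months was measured on 4 expression arrays. One array held control RNA, and the others held RNA of mice treated for 1, 3 or 6 days with CL 316243, a drug that activates the β3-adrenergic receptor, at 3 nmol/hr; the titles of 2 arrays give its number as 316234. Each RNA was a pool, and every group had 1 array, so the differences have no replicate check, no test was run, and the number of arrays limits the precision. How many animals went into a pool, how the drug was given and what the control animals received are not stated in the sources used here. Values are scaled probe set intensities, and changes were taken on the log2 scale after values below a floor of 173 intensity units were raised to it; a change counted as a rise or a fall when it was at least 1.5-fold. Between 59.9% and 60.2% of the 12422 probe sets per array lay above the floor. Measurement error was gauged from 735 genes with 2 probe sets above the floor: the error of a log2 change was 0.32 at day 1, 0.26 at day 3 and 0.25 at day 6. It takes in probe set differences only; how far pools of other animals would differ is unknown.

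The respiratory chain of the inner mitochondrial membrane passes electrons from NADH (complex I) and succinate (complex II) through ubiquinone to complex III and cytochrome c, and on to cytochrome oxidase. Complexes I and III pump protons across the membrane as they do so, and ATP synthase lets the protons flow back to make ATP. White fat cells hold few mitochondria beside brown fat cells, in which uncoupling protein lets the proton gradient run down as heat, and β3-adrenergic stimulation is known to bring brown-like features to white fat.

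Most of these genes had a lower value on the day 1 array than in control and a higher one on the arrays of days 3 and 6. Of the 58 members, 52 were above the floor on all 4 arrays, 3 on some and 3 on none; changes are counted over the first 55. At day 1 their median log2 change was -0.25, and 39 were below 0 and 16 above (45.4% of all genes). At day 3 the median was 0.31 with 50 above 0, and at day 6 it was 0.32 with 52 above 0. Over all 6269 genes above the floor the medians were -0.02, 0.00 and 0.00, with 51.2% of genes below 0 at day 1, 46.4% above 0 at day 3 and 46.7% above 0 at day 6. The 3 comparisons share the control array, so a high or low value there would enter each of them. In bulk RNA, fewer cells of a type and less RNA per cell cannot be told apart. Most markers of white fat cells (median log2 change -0.97, range -3.52 to 0.00) and macrophages (2.11, range 0.00 to 3.82) also moved at day 1. Their part in the members' values was not tested.

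Most of the changes were small. The quartiles of the members were -0.41 and 0.04 at day 1, 0.12 and 0.40 at day 3, and 0.19 and 0.52 at day 6. At day 1, 6 of 55 members (10.9%) were at least 1.5-fold lower and 0 higher, where 18.4% of all genes were lower and 16.0% higher by that much, so the share of large falls was no greater among the members than over all genes. At day 3, 4 members (7.27%) were at least 1.5-fold higher and 0 lower, where 9.94% of all genes were higher and 10.6% lower. At day 6, 10 members (18.2%) were at least 1.5-fold higher and 0 lower, where 7.93% of all genes were higher and 7.83% lower. The day 6 count was 6 of 45 without probe sets whose identifier carries a mark of shared or weak design. Past 2-fold were Atp5g1 and Ndufv3 downward at day 1 (8.36% of all genes) and Atp5d upward at day 6 (1.72% of all genes). The day 1 value of Atp5g1 was below the floor, and its other probe set was higher at day 1 than in control.

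**Figure D1:**
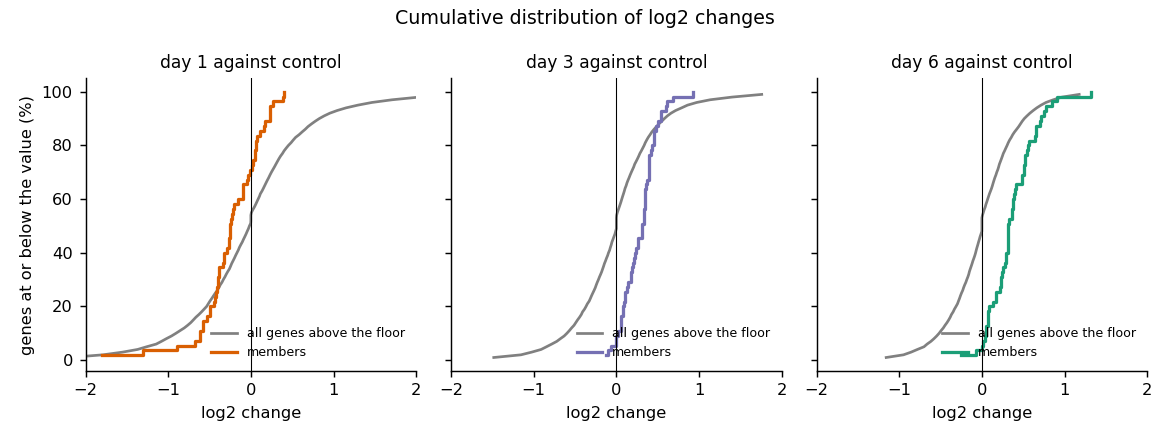
Cumulative share of genes (vertical axis, percent) at or below each log2 change against control (horizontal axis) for the 55 members above the floor (coloured steps) and all 6269 genes above the floor (grey line, 1st to 99th percentile). At day 1 the member curve lies left of the grey line above the lower quartile of -0.41, and it ends at 0.40; at days 3 and 6, with medians of 0.31 and 0.32, it lies right of the grey line except near its top.

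The order of the 4 arrays within each gene was counted on values without the floor. Day 1 was the lowest of the 4 arrays in 39 of 55 members (70.9%), against 37.8% of all genes. The highest array was day 6 in 32 members, where 24.9% of all genes had it, and day 3 in 21 members, against 19.2%. The sequence of a value below control at day 1 and above control at both days 3 and 6 was found in 35 members (63.6%) and in 13.1% of all genes. Another 15 members had control as their lowest array (20.3% of all genes), among them Cycs, Uqcrc1, Uqcr10, Sdhd and Atp5d.

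From day 1 to day 3, a comparison that does not use the control array, the median log2 change was 0.47, with 53 of 55 members above 0 (51.1% of all genes). Of the 55, 19 members (34.5%) were at least 1.5-fold higher at day 3 than at day 1 and 0 were lower by that much, against 16.4% and 14.3% of all genes. Past 2-fold upward were Atp5g1, Ndufv3 and Sdha (5.81% of all genes). For Atp5g1 the day 1 value was below the floor, and its other probe set was lower at day 3 than at day 1. From day 3 to day 6 the median was 0.07, with 32 members above 0 (49.3% of all genes) and 22 below (45.8%). None of the 55 passed 1.5-fold either way between these days, where 7.11% of all genes were higher and 7.80% lower by that much.

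Changes were also counted against the error. At day 1, 21 of 55 members (38.2%) were lower by more than 1 error, near the 30.6% of all genes, and 2 (3.64%) were higher, where 25.8% of all genes were. At day 3, 31 members (56.4%) were higher by more than 1 error, against 24.5% of all genes. At day 6 there were 37 (67.3%), against 23.9% of all genes. At day 1 a change of more than 3 errors is 1.96-fold, which only Atp5g1 and Ndufv3 passed among the members (8.82% of all genes were lower by that much). The error was gauged from probe sets above the floor on all 4 arrays, so it does not cover Atp5g1, whose day 1 value was below it. The other probe set of Atp5g1 was higher at day 1, with a log2 change of 0.38. At day 3, 3 errors are 1.73-fold, which Atp5d passed upward (6.05% of all genes). At day 6 they are 1.68-fold, and Atp5d, Sdha, Uqcr10 and Uqcrc1 passed upward (4.34% of all genes). From day 1 to day 3, Atp5g1, Ndufb11, Ndufv3 and Sdha were higher by more than 3 errors (7.86% of all genes), with the same limit for Atp5g1.

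Most members are bright on these arrays, so the counts were also set against bright genes. Of 48 members with a mean of at least 8 times the floor, 35 were below 0 at day 1, and 46 were above 0 at day 3 and 46 at day 6. The shares over the 2324 genes as bright were 53.9% below 0 at day 1, 50.5% above 0 at day 3 and 48.9% above 0 at day 6. Past 1.5-fold were 5 of the 48 downward at day 1 (20.4% of bright genes), 3 upward at day 3 (10.3%) and 10 upward at day 6 (7.62%).

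**Figure D2:**
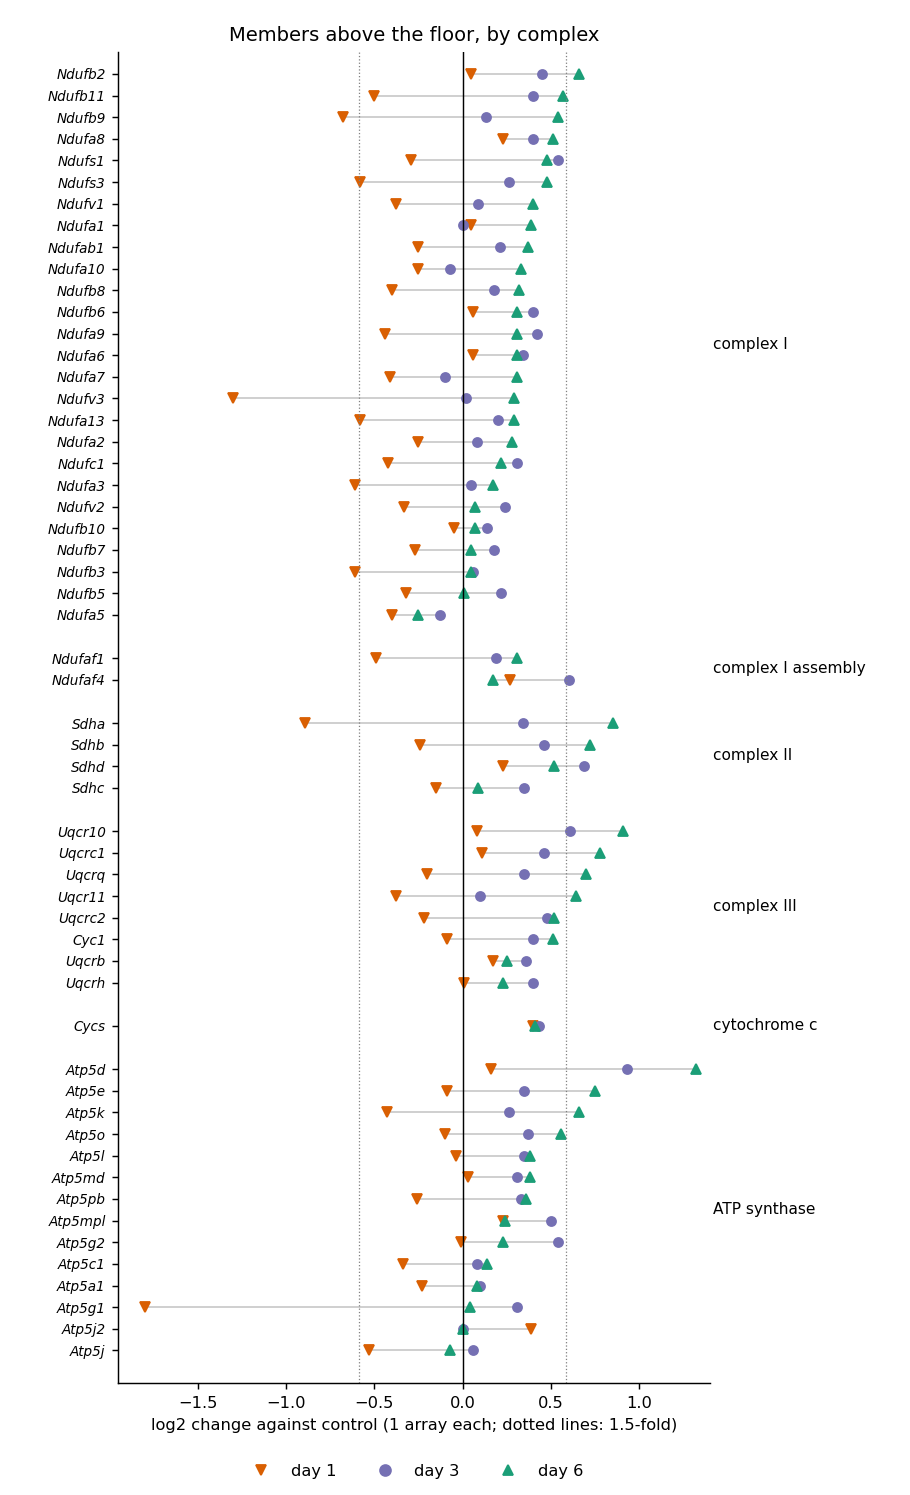
Log2 change against control (horizontal axis) of each of the 55 members above the floor, grouped by complex and sorted within it by the day 6 change; triangles pointing down, circles and triangles pointing up stand for days 1, 3 and 6, with 1 array each. Most day 1 marks lie left of 0 and most day 3 and day 6 marks right of it, within the dotted lines at 1.5-fold; Ndufv3 and Atp5g1 stand out to the left and Atp5d to the right.

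Promoter sequences were examined because the members shifted together. The promoter table (RefSeq, GRCm38.p6) held 53 starts of 48 of the 58 members, and the 250 bases before each start were searched on both strands for 5 motifs. These were the NRF1 letters gcatgcgc, the ETS letters ccggaag, bound by GABPA, the YY1 letters aagatggc, the letters aaggtca bound by estrogen-related receptors (ERR), and the cAMP response element (CRE) tgacgtca. The motifs belong to factors known for their part in expression of nuclear genes of the respiratory chain or, for the last, in the response to cAMP. The windows below are shown because they belong to members described with their values further on: the first 4 hold a match, in capitals, and the last pair hold none, though Sdha, the catalytic subunit of complex II, passed 1.5-fold in both directions and Atp5d, of ATP synthase, had the largest rise. Atp5d has 2 starts in the table, and the window of the farther upstream one is given.
Cycs (chr6:50566570-50566819, minus strand; CRE, then NRF1): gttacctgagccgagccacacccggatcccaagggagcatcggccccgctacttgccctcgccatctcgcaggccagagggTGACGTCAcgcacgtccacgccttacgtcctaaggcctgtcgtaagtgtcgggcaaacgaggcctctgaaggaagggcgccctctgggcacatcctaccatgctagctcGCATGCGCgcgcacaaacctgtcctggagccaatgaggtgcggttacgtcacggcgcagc
Ndufb2 (chr6:39592315-39592564, plus strand; ERR, then CRE): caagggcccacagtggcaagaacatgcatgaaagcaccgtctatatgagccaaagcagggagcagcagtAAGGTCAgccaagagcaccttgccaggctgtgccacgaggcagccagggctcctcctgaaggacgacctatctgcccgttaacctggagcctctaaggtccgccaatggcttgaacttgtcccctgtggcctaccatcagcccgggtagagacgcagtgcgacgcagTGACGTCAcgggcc
Sdhb (chr4:140961021-140961270, plus strand; NRF1): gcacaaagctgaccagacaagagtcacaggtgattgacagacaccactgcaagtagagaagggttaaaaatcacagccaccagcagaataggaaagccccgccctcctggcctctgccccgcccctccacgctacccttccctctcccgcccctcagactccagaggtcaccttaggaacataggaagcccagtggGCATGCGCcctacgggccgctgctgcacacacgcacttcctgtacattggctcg
Uqcr11 (chr10:80406822-80407071, minus strand; ETS): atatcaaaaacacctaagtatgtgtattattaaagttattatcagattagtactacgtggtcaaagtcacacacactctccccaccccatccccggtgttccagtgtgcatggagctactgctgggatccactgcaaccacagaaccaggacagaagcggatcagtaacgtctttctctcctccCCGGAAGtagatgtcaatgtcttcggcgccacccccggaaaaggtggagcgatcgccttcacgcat
Sdha (chr13:74350241-74350490, minus strand): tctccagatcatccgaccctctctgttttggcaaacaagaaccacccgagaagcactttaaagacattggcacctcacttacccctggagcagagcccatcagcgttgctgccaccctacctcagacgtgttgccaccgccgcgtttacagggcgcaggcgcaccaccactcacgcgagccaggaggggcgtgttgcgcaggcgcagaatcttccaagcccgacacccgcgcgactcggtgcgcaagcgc
Atp5d (chr10:80142025-80142274, plus strand): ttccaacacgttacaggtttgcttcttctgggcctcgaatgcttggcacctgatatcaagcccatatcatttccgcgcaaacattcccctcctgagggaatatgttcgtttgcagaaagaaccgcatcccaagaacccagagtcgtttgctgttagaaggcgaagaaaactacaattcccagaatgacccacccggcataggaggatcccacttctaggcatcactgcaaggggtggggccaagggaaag

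In the Cycs window the CRE letters began 169 bases and the NRF1 letters 60 bases before the start. In Sdhb the NRF1 letters began 54 bases, and in Uqcr11 the ETS letters 66 bases, before it. In Ndufb2 the CRE letters lay 14 bases before it.

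Over all member promoters, the NRF1 letters were found in 8 of 53 windows (15.1%), against 2.26% of all 32851 promoters in the table and 4.23% of the 6502 promoters of array genes above the floor. The ETS letters were found in 10 windows (18.9%), against 6.91% and 12.7%. The CRE was in 3 windows (5.66%, against 1.55% and 2.31%), those of Cycs, Ndufa10 and Ndufb2. The YY1 letters were in 1 window (1.89%, against 1.56% and 1.92%) and the ERR letters in 2 (3.77%, against 4.08% and 3.01%). Matches of different motifs overlapped in 0 cases, and the median GC content of the member windows was 58.0%, against 59.6% for array genes above the floor. The spellings of the motifs were chosen after matches under several spellings were counted. These shares therefore describe the chosen spellings and cannot measure enrichment free of that choice.

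The 17 members with the NRF1 or ETS letters had medians of -0.04, 0.35 and 0.38 at days 1, 3 and 6. The 28 other members with a promoter in the table and a value above the floor had medians of -0.34, 0.22 and 0.32. A match describes these letters in this window and is not evidence of binding, and the difference between the groups was not tested.

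Complex I takes electrons from NADH. Its 26 subunits above the floor had a median log2 change of -0.36 at day 1. Of these, 21 were below 0 (51.2% of all genes) and 4 fell past 1.5-fold (18.4% of all genes). The median was 0.19 at day 3 with 22 above 0 (46.4% of all genes), and 0.31 at day 6 with 25 above 0 (46.7%). Of the arm that reaches into the matrix, the 5 measured Ndufs and Ndufv genes above the floor were each below control at day 1, with a median of -0.38, and each above control at day 6, with a median of 0.40.

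Ndufv3, an accessory subunit of the NADH-oxidizing module, went from 5726 intensity units in control to 2318 at day 1, and stood at 5788 at day 3 and 6997 at day 6. It fell 2.47-fold at day 1 and was back at the control level at day 3, with a log2 change of 0.02. Ndufv1, which carries the flavin and binds NADH, was at 15419, 11824, 16407 and 20321 on the control, day 1, day 3 and day 6 arrays. Ndufs1, the largest iron-sulphur subunit, was at 4588, 3748, 6676 and 6403 in the same order. Both were lowest at day 1, with log2 changes of -0.38 and -0.29, and neither passed 1.5-fold on any day; at day 6 their log2 changes were 0.40 and 0.48.

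The other falls past 1.5-fold at day 1 were in accessory subunits. Ndufb9 was at 10346 in control, 6467 at day 1, 11343 at day 3 and 15028 at day 6, a fall of 1.60-fold at day 1. Ndufb3 went from 9421 to 6164, then to 9800 and 9743. Ndufa3 went from 14622 to 9576, then to 15123 and 16432. Ndufb3 and Ndufa3 each fell 1.53-fold at day 1 and were within 1.5-fold of control on the later days. Ndufs3, a subunit of the ubiquinone-reducing part, was just short of the threshold at day 1, going from 10721 to 7194, 1.49-fold lower.

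Upward, Ndufb2, an accessory subunit of the membrane arm, was the only complex I gene past 1.5-fold at day 6. It was at 10856, 11225, 14877 and 17115 on the 4 arrays in time order, a rise of 1.58-fold, and its other probe set above the floor went from 9967 to 16670 between control and day 6; the mean over all 4 probe sets, with the dim pair at the floor, gave a log2 change of 0.35. Ndufa5 was the exception in direction: at 9132, 6929, 8347 and 7676 it was the one complex I gene that stayed below control on all 3 treated arrays, with a log2 change of -0.25 at day 6, against an error of 0.25.

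Of the assembly factors, which help to build complex I and are not part of it, Ndufaf4 went from 319 in control to 385, 484 and 358, a rise of 1.52-fold at day 3 that was 0.30 on the log2 scale in the mean over its 2 probe sets. Ndufaf1 was at 1347, 957, 1535 and 1674 and did not pass 1.5-fold.

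The remaining complex I subunits kept within 1.5-fold of control on every array. Ndufb11, of the membrane arm, was at 6951, 4903, 9192 and 10340, with a log2 change of 0.57 at day 6, and was 1.87-fold higher at day 3 than at day 1. Ndufa9, at the junction of the arms, was at 7715, 5692, 10334 and 9562, with its highest array at day 3. Ndufa7, at 18270, 13795, 17026 and 22679, and Ndufa10, at 863, 724, 825 and 1082, were still below control at day 3 and above it only at day 6. Ndufa6, Ndufa8, Ndufb2 and Ndufb6 were the 4 complex I genes above control on all 3 treated arrays; Ndufa8 was at 4113, 4829, 5419 and 5868. The largest log2 change among the 4 at day 1 was 0.23, that of Ndufa8, within 1 error.

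Ndufa12, Ndufc2 and Ndufs4 were below the floor on all 4 arrays, and Ndufa1 was above it on 2 arrays, at values between 134 and 226, so these genes carry little or no information on change.

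Complex II, succinate dehydrogenase, is at once an enzyme of the citric acid cycle and an entry point for electrons. Sdha, its flavin-bearing catalytic subunit, was at 2147 in control, 1157 at day 1, 2709 at day 3 and 3883 at day 6. It fell 1.86-fold at day 1 and rose 1.81-fold above control at day 6, and among the 55 members it alone passed 1.5-fold in both directions. From day 1 to day 3 Sdha went up 2.34-fold. Sdhb, the iron-sulphur subunit, was at 9782, 8274, 13461 and 16099, a rise of 1.65-fold at day 6; its window above holds the NRF1 letters.

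The membrane anchors of complex II differed from these and from each other. Sdhd was at 8694, 10189, 13993 and 12437, higher than control each time, with its rise past 1.5-fold at day 3 (1.61-fold). Sdhc was at 9977, 8995, 12727 and 10648 and did not pass 1.5-fold. All 4 subunits were above control at both days 3 and 6 (46.4% of all genes at day 3 and 46.7% at day 6).

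Complex III passes electrons from ubiquinol to cytochrome c. Its 8 genes had a median log2 change of -0.04 at day 1, with 4 below 0 (51.2% of all genes) and 4 above (45.4%). The median was thus near 0 where that of complex I was -0.36. At days 3 and 6 all 8 were above control (46.4% and 46.7% of all genes), with medians of 0.40 and 0.58. At day 6, 4 of 8 were past 1.5-fold (7.93% of all genes). Whether the complexes differ was not tested, since subunits of one complex measured on the same array are not replicates.

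Uqcr10, a small accessory subunit, was at 10746 in control, 11344 at day 1, 16405 at day 3 and 20214 at day 6. It was up 1.53-fold at day 3, and its rise of 1.88-fold at day 6 was the largest of the complex. Uqcrc1, one of the large core proteins, was at 8433, 9102, 11587 and 14451, and rose 1.71-fold at day 6. Uqcrq, at 24052, 20923, 30659 and 38979, and Uqcr11, at 12476, 9598, 13335 and 19458, are small accessory subunits that were below control at day 1 and rose 1.62-fold and 1.56-fold at day 6. The other core protein, Uqcrc2, was at 6392, 5478, 8936 and 9184, with a log2 change of 0.52 at day 6. Uqcrb and Uqcrh, at 0.25 and 0.23 at day 6, were lower at day 6 than at day 3, unlike the others of the complex.

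Cyc1, the haem-bearing cytochrome c1, was at 24192, 22736, 32021 and 34467, with log2 changes of 0.40 at day 3 and 0.51 at day 6; its dimmer probe set was at 2980, 3905, 3925 and 2995, so that only the brighter one was above control at day 6 by more than the error.

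Cytochrome c (Cycs), the mobile carrier between complex III and cytochrome oxidase, whose window above holds both CRE and NRF1 letters, was among the 15 members with control as the lowest array. Its control value was 3173, and it stood at 4190, 4274 and 4205 on days 1, 3 and 6. The 3 treated arrays lay close together and above control, with log2 changes of 0.40, 0.43 and 0.41. The day 1 change was the highest of the members beside Atp5j2, whose control value was below the floor (at least 1.31-fold), and none of the 3 values passed 1.5-fold. Cycs and Atp5j2 were the 2 members higher by more than 1 error at day 1, where 25.8% of all genes were.

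**Figure D3:**
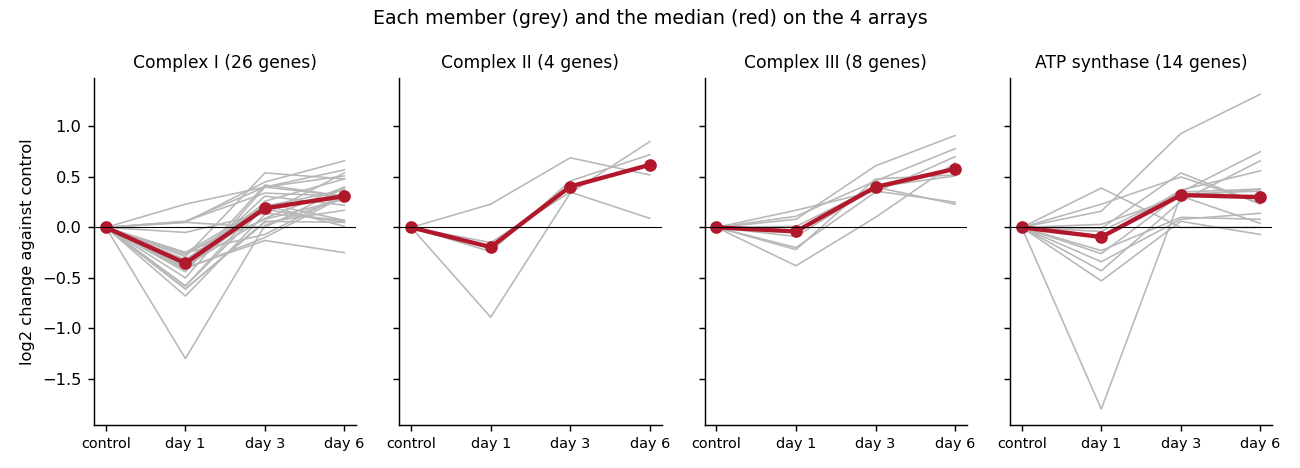
Log2 change against control (vertical axis) on the control, day 1, day 3 and day 6 arrays for the members of complexes I, II and III and ATP synthase above the floor; grey lines are single genes and the red line their median. The complex I median dips to -0.36 at day 1, while that of complex III is at -0.04; at day 6 the medians of complexes II and III, at 0.62 and 0.58, are above those of complex I and ATP synthase, at 0.31 and 0.30.

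ATP synthase consists of a catalytic head, a rotor with its central stalk, a side stalk and membrane subunits. Its 14 genes had medians of -0.10, 0.32 and 0.30 at days 1, 3 and 6. Of the 14, 10 were below 0 at day 1 (51.2% of all genes). Above 0 were 13 at day 3 (46.4% of all genes) and 12 at day 6 (46.7%). The subunits of head and stalk differed in the size of their changes. Atp5a1, the alpha subunit of the head, was at 19368, 16532, 20825 and 20538, and Atp5c1, the gamma subunit of the stalk, at 17316, 13673, 18243 and 19125. Both were lowest at day 1 and within 0.14 of control on the log2 scale at days 3 and 6.

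Atp5d, the delta subunit of the central stalk, was at 2173 in control, 2430 at day 1, 4147 at day 3 and 5420 at day 6, a rise of 1.91-fold at day 3 and 2.49-fold at day 6. Atp5e, the epsilon subunit of the same stalk, was at 7428, 6988, 9446 and 12484 and rose 1.68-fold at day 6. Atp5k, a small membrane subunit, was at 1595, 1184, 1905 and 2516 and rose 1.58-fold at day 6. Atp5o, the subunit that joins the side stalk to the head, was at 10357, 9630, 13344 and 15243 and stayed just under the threshold, at 1.47-fold.

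The size of the Atp5d rise depended on the probe set. Besides the representative one, another went from 2102 in control to 4277 at day 6 and one more from 1587 to 2346. A dim one was at 192 in control and 185 at day 6, and the last was below the floor throughout. The mean over all 5 gave a log2 change of 0.57 at day 6, where the brightest gave 1.32; with only unmarked probe sets it was -0.05.

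Of the side stalk and membrane subunits, Atp5j was at 9050, 6246, 9403 and 8640, 1.45-fold lower at day 1 and back near control later. Atp5pb, of the side stalk, was at 1082, 906, 1360 and 1388. Atp5l, Atp5md and Atp5mpl, small membrane subunits, had log2 changes of 0.38, 0.38 and 0.24 at day 6 and were within 0.23 of control at day 1.

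The c-ring genes encode the membrane rotor and were among the dimmer members. Atp5g1 was at 604 in control, 167 at day 1, 750 at day 3 and 623 at day 6. By this probe set it was at least 3.49-fold lower at day 1, the day 1 value being under the floor. With a floor at the 60th percentile the log2 change of Atp5g1 was -0.17 and the call was lost. Its other probe set went the opposite way, at 123 in control, 225 at day 1, 139 at day 3 and 185 at day 6, and gave a log2 change of 0.38 at day 1. Atp5g2 was at 1562, 1548, 2277 and 1827, with its highest log2 change, 0.54, at day 3. The day 1 fall of Atp5g1 therefore rests on 1 of its 2 probe sets and on the floor.

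Over the members as a whole, 15 of the 58 had more than 1 probe set on the array. Of their 20 other probe sets, 9 were at or below the floor on all 4 arrays and 9 were above it on all 4. Of those 9, from 7 genes, 6 lay on the same side of 0 as the representative probe set at day 1, 8 at day 3 and 8 at day 6.

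**Figure D4:**
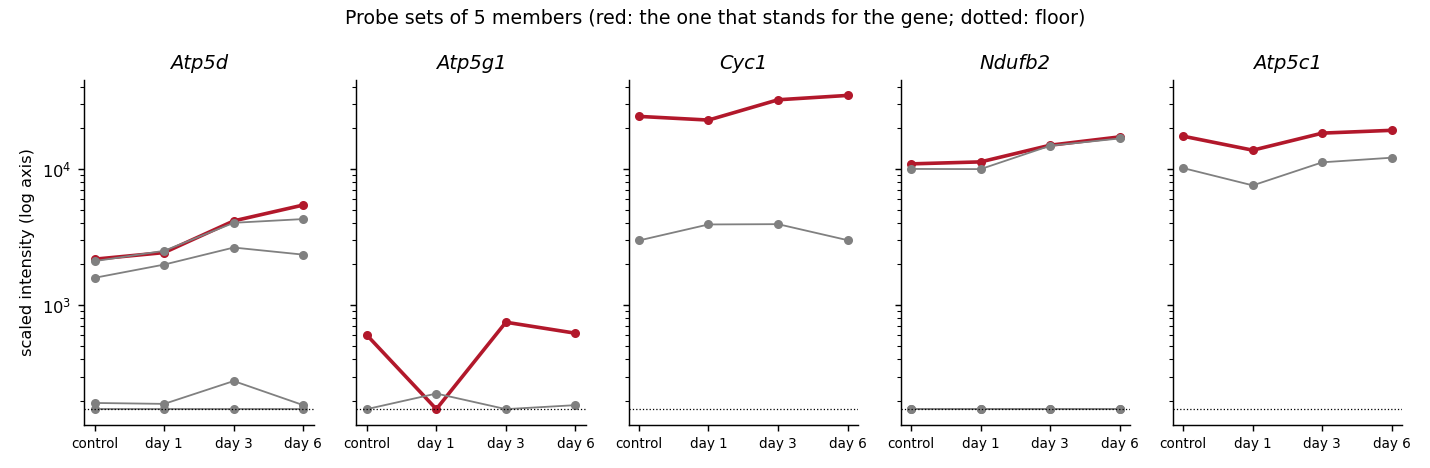
Scaled intensity (log axis) on the 4 arrays for every probe set of 5 members; the red line is the probe set with the highest mean, grey lines are the others, and values below the floor of 173 units (dotted) are drawn on it. The probe sets of Ndufb2 and Atp5c1 above the floor run in parallel, 3 of the Atp5d probe sets rise to different extents, and those of Atp5g1 move in opposite directions at day 1.

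Other genes of mitochondria were set beside the members. Of 12 cytochrome oxidase genes above the floor, the next complex of the chain, 10 were below 0 at day 1 (51.2% of all genes). Their medians were -0.27, 0.30 and 0.39. Those of 11 citric acid cycle enzymes were -0.54, 0.39 and 0.45, and those of 59 mitochondrial ribosomal proteins -0.18, 0.10 and 0.19. Citrate synthase (Cs), often taken as a measure of mitochondrial content, was at 10208 in control before 6958, 13395 and 11795 on days 1, 3 and 6. Other genes listed for mitochondrial mass went different ways. On those days the log2 changes were -0.09, -0.27 and -0.47 for Vdac2 and -0.13, -0.08 and 0.01 for Vdac3. They were -0.60, -0.24 and -0.33 for Slc25a4, and 0.17, 0.59 and 0.36 for Slc25a5. Vdac1 was below the floor on all 4 arrays, and Slc25a3 was near it. At day 1, 18.4% of all genes were at least 1.5-fold lower and 16.0% higher. Of 12 cytochrome oxidase genes, 1 was lower by that much and 1 higher. Of 11 citric acid cycle genes 3 were lower and 0 higher, and of 59 ribosomal protein genes 5 and 0. At day 6, 3, 2 and 5 genes of these lists, in the same order, were at least 1.5-fold higher (7.93% of all genes). By that much, 0, 0 and 1 were lower (7.83% of all genes). These lists had their medians below 0 at day 1 and above 0 later, as the members did.

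Among regulators of mitochondrial genes, 9 of 12 listed were measured and 6 were above the floor, with medians of -0.27, 0.13 and 0.21. Past 1.5-fold at day 1 were 1 of these 6 upward (16.0% of all genes) and 1 downward (18.4%). At day 3 and at day 6, 1 was past it upward (9.94% and 7.93% of all genes). Esrra, a nuclear receptor that acts on respiratory chain genes, was at 2017, 2451, 3036 and 2771, and rose at day 3 with a log2 change of 0.59. Gabpa, which binds the ETS letters, was at 815, 593, 611 and 694, below control on each treated array. Gabpb1 of the same list went the other way, at 437, 670, 622 and 530, with a log2 change of 0.62 at day 1. Tfb2m passed 1.5-fold downward at day 1 (log2 change -0.78) and Polrmt upward at day 6 (0.78). Ppargc1a, the coactivator best known for driving mitochondrial genes, and Tfam, which maintains mitochondrial DNA, were below the floor on all 4 arrays. Atpif1, the inhibitor protein of ATP synthase, was at 4076, 4332, 5664 and 4332.

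**Figure D5:**
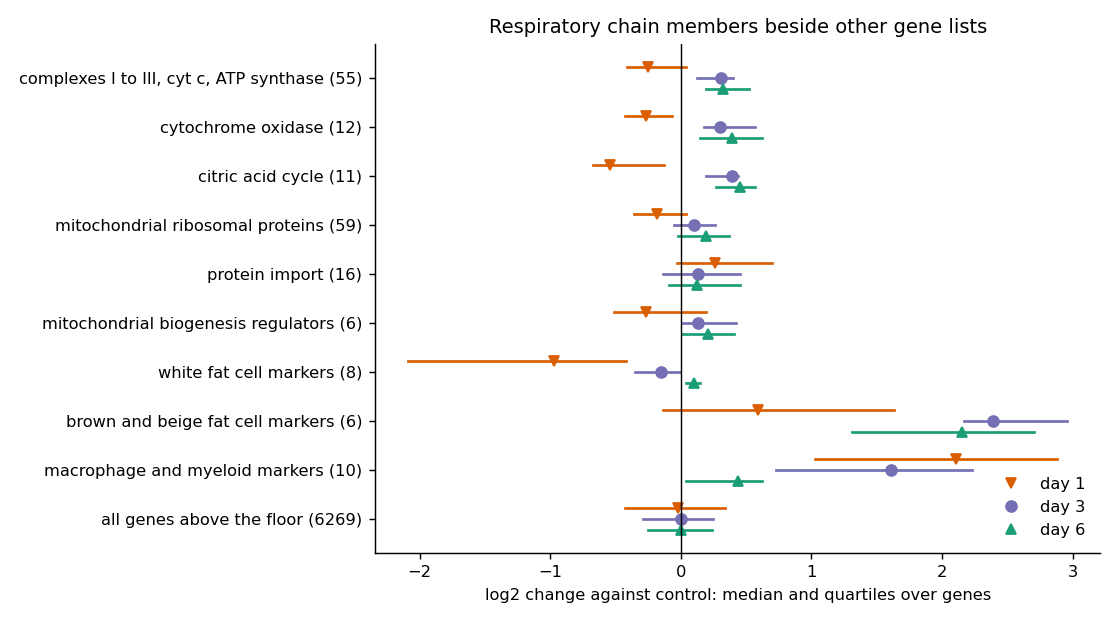
Median log2 change against control (marks) and quartiles (bars) for the members and for 8 other gene lists, with the number of genes above the floor in parentheses and all genes in the last row; triangles pointing down, circles and triangles pointing up stand for days 1, 3 and 6. The members, cytochrome oxidase, citric acid cycle and mitochondrial ribosomal protein lists have medians below 0 at day 1 and above 0 at days 3 and 6; the protein import list is above 0 on each day, and white fat cell and macrophage markers shift further at day 1 than the members do.

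Markers of the cell types in fat tissue moved on the same arrays. White fat cell markers, with 8 of 10 listed measured, all above the floor, had medians of -0.97, -0.15 and 0.10. At day 1 they ranged from -3.52 to 0.00, and 5 of 8 were at least 1.5-fold lower (18.4% of all genes). Their summed intensity was 194075 in control, then 113971, 168124 and 196446. The medians of the 10 macrophage and myeloid markers were 2.11, 1.61 and 0.44, and their summed intensities were 32509, 93425, 84443 and 41027. At day 1 their log2 changes ranged from 0.00 for Lyz2 and 0.09 for Csf1r to 3.82 for Itgam. Brown and beige markers, 6 of 7 measured above the floor, had medians of 0.59, 2.39 and 2.15. All 7, negative values not counted, summed to 1671, 5363, 14448 and 19167. Cox8b alone made up 1002, 815, 9551 and 15473 of these sums. From day 3 to day 6, 5 of the 6 markers were lower (45.8% of all genes) and 1, Cox8b, was higher (49.3%). Ucp1 was highest at day 1, at 3056, and stood at 1501 and 1190 on days 3 and 6.

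Tissues rich in mitochondria or adjoining the fat pad were checked in the same way. Of 12 skeletal and heart muscle markers, 6 (Ckm, Mb, Myh1, Myh2, Tnnt3 and Tnni2) were below the floor on all 4 arrays. The other 6 (Acta1, Myh4, Myh7, Tnnc2, Mylpf and Actn3) were above it on at least 1 array. The summed intensity of the list, negative values not counted, was 2778, 3507, 1422 and 1607 in time order. Acta1, the actin of skeletal muscle, made up 1492 of the sum in control, 2379 at day 1, 212 at day 3 and 168 at day 6. It was 7.03-fold lower than control at day 3 and at least 8.62-fold lower at day 6. The dimmer markers did not share this course. At days 1, 3 and 6 the log2 changes were -0.99, 0.16 and 0.12 for Myh4 and -0.56, -0.27 and -0.56 for Myh7. They were 0.66, 0.00 and 0.13 for Tnnc2, 0.09, 0.10 and 0.44 for Mylpf, and -0.63, -0.63 and -0.17 for Actn3. The part of muscle RNA in the members' values was not tested. Of 8 epididymis and testis markers, 7 were measured and 4 were above the floor. Lcn5, a secreted protein of the epididymis, was at 3321 in control, 63 at day 1, 7 at day 3 and 8029 at day 6. The control and day 6 arrays thus carried this transcript, and the others did not carry it above the floor. Tnp1 was above the floor on all 4 arrays, at 1258, 1278, 1234 and 1709. Prm1 and Defb1 were above it at day 6 only, at 307 and 205. The part of such RNA in the members' values was not tested.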

How the data were processed

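The intensity values deposited by the authors are whole numbers on a linear scale, 12.2% to 12.4% of them at or below 0 on each array. Software, background step, normalization and genome build: not given in the sources used here. All arrays had nearly the same distribution (medians 314.0 to 314.5). Of 12488 probe sets, 66 controls were left out after scaling; 10833 had 1 gene symbol in the platform annotation.

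Arrays were scaled to a common mean of values between the 2nd and 98th percentiles (factors 0.999 to 1.001), floored at the 40th percentile (173 units) and put on the log2 scale. Intensities are printed scaled, before the floor. A fold against a value at the floor is a lower bound. The error between probe sets is the median absolute deviation, scaled to a normal SD, of the difference between the log2 changes of 2 probe sets of a gene, divided by the square root of 2. Named with full values were members past 1.5-fold on any day with a brighter value at least 2 times the floor, the largest fall at day 1 and rise at day 6 per complex, and core and c-ring subunits (24 genes); other members and list genes with values were chosen after their values were seen. Members and gene lists were chosen with earlier results of these data known, and the motif spellings after matches under several spellings were counted. All 58 members matched the RefSeq gene table (GRCm38.p6) by Entrez identifier. Scripts ran in Python 3.11.15 with numpy 2.4.6 and pandas 2.3.3 and were tested on simulated data. Alternatives covered the floor, scaling, choice of probe set and choice of members.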

Additional observations from a re-analysis of the deposited data

Results flagged for a closer look

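The direction of the members' shift differed between treatment times: the median log2 change against control was -0.25 at day 1, 0.31 at day 3 and 0.32 at day 6. The same held for Sdha, at -0.89 at day 1 and 0.85 at day 6. These differences between times were not tested, since each time has 1 array.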

How the results depend on the processing

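The 5 medians kept their sign and moved by less than the error between probe sets under all 8 alternatives each: the day 1 median ranged from -0.25 to -0.23, the day 3 median from 0.26 to 0.34, the day 6 median from 0.31 to 0.34, day 3 against day 1 from 0.46 to 0.49 and day 6 against day 3 from 0.05 to 0.11. Not all alternatives could move the medians much. The deposited arrays already had nearly the same distribution, so leaving out scaling or using quantile normalization could change little. The alternative with all members added only the 3 below the floor. Of the alternatives, the one limited to the 48 members with a mean of at least 8 times the floor was chosen after seeing the data. Members at least 1.5-fold lower at day 1 numbered 4 to 8 (6 as reported), and members at least 1.5-fold higher at day 3 numbered 3 to 5 (4). At day 6 the count was 6 to 11 (10); the lowest, 6, came without probe sets with a marked identifier, which leaves 45 members. In that setting Atp5d at day 6 was at -0.05 and Atp5g1 at day 1 at 0.38, each opposite to the representative probe set, because another probe set then stands for the gene. Of 414 values of named members under alternatives, 402 moved by less than the error and the others by more. In all, 4 were opposite in sign: the 2 above, Atp5d at day 1 (-0.02 in the same setting, 0.16 as reported) and Cyc1 at day 1 (0.15 as the mean over its probe sets, -0.09 as reported), both within 1.5-fold. No paired analysis was possible because each group has 1 array. Signal over background limits the 3 members below the floor and the 3 above it on only some arrays.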

Other observations

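Genes of protein import into mitochondria did not follow the members at day 1. Of 16 Timm and Tomm genes above the floor, 11 were above 0 at day 1, against 45.4% of all genes, and the median log2 change was 0.26, then 0.13 at day 3 and 0.12 at day 6. At day 1, 5 of the 16 were at least 1.5-fold higher (16.0% of all genes) and 1 was lower by that much (18.4% of all genes). Tomm40, the channel of the outer membrane, was at 147, 571, 328 and 244 in time order, a rise of at least 3.30-fold at day 1. Timm8a1, a chaperone of the space between the membranes, was at 616, 1804, 852 and 581. Tomm7, a small subunit of the outer membrane complex, went the other way, at 9733 in control and 6022 at day 1. These genes were named after their values were seen.

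Of the antioxidant enzymes of the matrix, Prdx3, which breaks down peroxides, was at 5505, 5930, 11417 and 10277, and the superoxide dismutase Sod2 at 2382, 7522, 3014 and 2848, so that Sod2 was highest at day 1 and Prdx3 at day 3.

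A further 8 probe sets carry a symbol of the family together with another symbol and were left out of the members. Of the 7 above the floor, 1 was above and 6 were below control at day 1, and 4 were above and 3 below at day 3 and again at day 6. Over all genes, 51.2% were below control at day 1, and 46.4% and 46.7% were above it at days 3 and 6. The median log2 changes of the 7 probe sets were -0.20, 0.14 and 0.16, and at day 6 they ranged from -0.68 to 0.58.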
